A study of Mus musculus with 88 samples.

Results

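The genes described here encode the constitutive subunits of the proteasome and its activators, measured in whole mouse hearts. They were chosen by name alone: every symbol made of Psma, Psmb, Psmc, Psmd or Psme and a number was taken, without Psmb8, Psmb9 and Psmb10, where a probe set of the array carried that symbol and no other. No measured value entered this choice, though it was made with earlier results of these data known. It gave 37 genes of 8251 with a probe set of their own. They comprised 7 genes of the alpha ring and 7 of the beta ring of the core particle, 6 ATPase genes and 14 other genes of the regulatory particle, and 3 activator genes. The brightest probe set stood for a gene, and those of Psma3, Psmb4, Psmb7, Psmc3 and Psmd12 are of the _f_ type, which can match related sequences. That of Psmb5 is of the _s_ type and that of Psmd9 of the _r_ type. Of the 37 genes 35 passed the filter on dim probe sets, while Psmc4 and Psmd2 did not. Psme2 is not among them because its probe set is shared with Psme2b.

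All mice lacked apolipoprotein E. The dKO mice (SR-BI-/- apoE-/-) were also without SR-BI, which Scarb1 encodes and which takes up cholesterol from high-density lipoprotein, and the HET mice (SR-BI+/- apoE-/-), which served as controls, kept 1 working allele of it. Per the series' design text, coronary disease is not detectable in chow-fed dKO mice at 21 days, infarcts are small with heart failure at 31 days, and they are extensive with severe failure by 43 days, and HET mice on this diet stay free of detectable disease. Other mice ate chow with probucol, a lipid-lowering antioxidant drug. The 88 arrays, 1 per mouse, came from 6 dKO probucol, 10 dKO chow, 3 HET probucol and 9 HET chow hearts at 21 days, from 8, 10, 3 and 10 such hearts at 31 days, and from 6, 12, 2 and 9 at 43 days. Whole hearts were used, so an infarcted heart contributes scar and infiltrating cells as well as muscle, and in such bulk tissue fewer cells of a type and less RNA per cell cannot be told apart.

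The proteasome degrades proteins that carry ubiquitin chains, and in heart muscle it turns over sarcomere proteins and clears damaged ones. Its core particle is a barrel of stacked alpha and beta rings, with the proteolytic sites on Psmb5, Psmb6 and Psmb7. The regulatory particle caps the barrel: the Psmc ATPases unfold the substrate and thread it in, and the Psmd subunits bind and remove ubiquitin or help assembly. Alternative caps open the barrel without ATP, among them Psme1 (PA28 alpha), Psme3 (PA28 gamma, a nuclear form) and Psme4 (PA200). Under interferon signalling the inducible subunits Psmb8, Psmb9 and Psmb10 replace Psmb5, Psmb6 and Psmb7.

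Levels are log2 signals relative to the median of their array, called centred levels here, and differences are on the same log2 scale with their standard error. A gene is called when its adjusted p, from limma with Benjamini-Hochberg adjustment over 5671 genes, is under 0.05. Centring moves many values, since array brightness itself differed by group. The log2 array median at 43 days averaged 5.49 ± 0.12 in dKO probucol hearts (SD, n = 6), 5.88 ± 0.20 in dKO chow hearts (n = 12) and 5.53 ± 0.36 in HET chow hearts (n = 9). At 31 days it was 5.68 ± 0.25 in dKO chow and 5.36 ± 0.26 in HET chow hearts (n = 10 each), and at 21 days 5.03 ± 0.20 in dKO chow (n = 10) and 5.24 ± 0.25 in HET chow hearts (n = 9). As deposited, without centring, the median of all tested genes differed between dKO and HET chow hearts by 0.18 at 31 days and 0.26 at 43 days, and by -0.32 between dKO probucol and dKO chow hearts at 43 days. Differences after centring are relative to those shifts. Scarb1, the targeted gene, averaged 1.05 ± 0.24 in dKO chow hearts (SD, n = 12) and 2.09 ± 0.27 in HET chow hearts (n = 9) at 43 days. All 11 cardiomyocyte markers on the array passed the filter, and none was at the floor on most arrays. The second component of the spread left within groups split the arrays into sets of 68 and 20 that were unevenly spread over the groups, with 0 of 10 dKO chow and 6 of 10 HET chow hearts at 31 days in the smaller set. On the first such component 4 arrays (dKO chow 31 days replicate 6, HET chow 21 days replicate 2, HET chow 31 days replicate 7 and HET chow 43 days replicate 9) lay over 2 SD out.

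On chow, subunit transcripts lay lower relative to the array median in dKO than in HET hearts at 31 and 43 days, and not at 21 days. The median level of the 35 tested genes on an array was 2.16, 2.43 and 3.13 at lowest, median and highest in dKO chow hearts at 43 days, against 2.47, 3.09 and 3.25 in HET chow hearts. At 31 days the same median was 2.39, 2.72 and 2.93 in dKO chow hearts and 2.62, 3.12 and 3.31 in HET chow hearts. At 21 days it was 2.76, 3.32 and 3.54 in dKO chow and 2.61, 3.05 and 3.45 in HET chow hearts. The ranges of dKO and HET chow hearts overlapped at every age. Before centring the same medians averaged 8.35 ± 0.27 in dKO chow hearts and 8.51 ± 0.13 in HET chow hearts at 43 days (SD, n = 12 and 9), and 8.37 ± 0.24 in dKO chow and 8.42 ± 0.16 in HET chow hearts at 31 days (n = 10 each). The shift at 31 and 43 days was thus one relative to the other genes of the array. As deposited the dKO means were also lower but closer to the HET means, and these differences of medians were not tested.

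**Figure D1:**
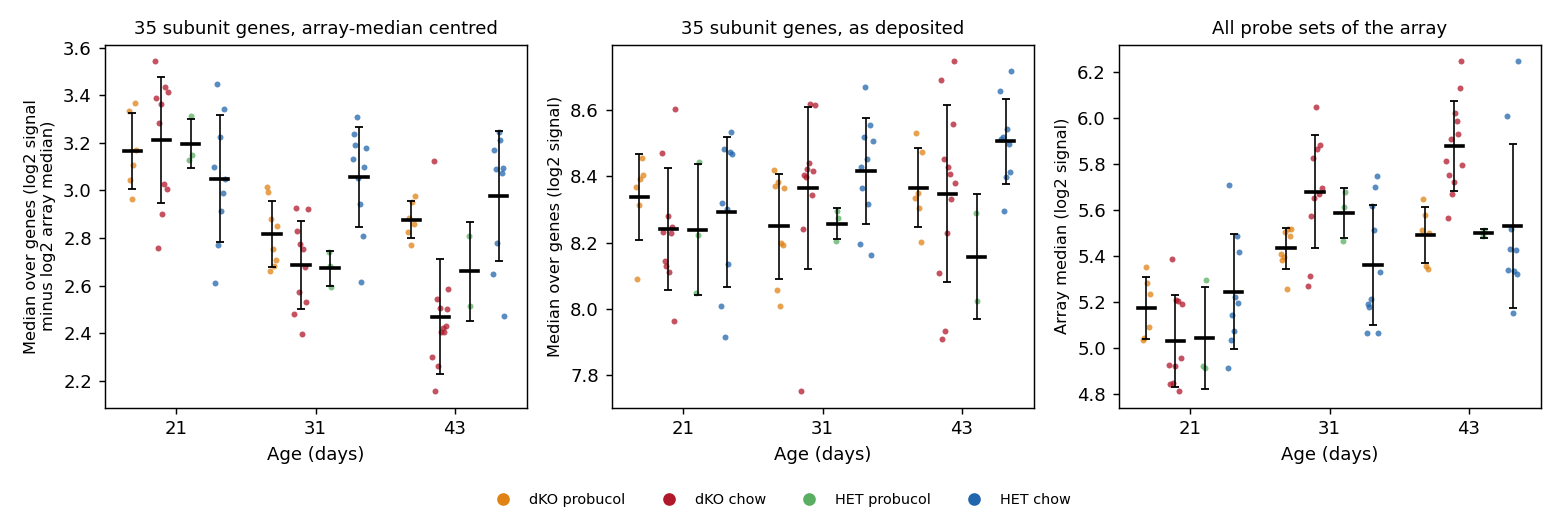
Median log2 level of the 35 tested subunit genes on each array after centring on the array median (left) and as deposited (middle), and the log2 median of all probe sets of the array (right), by age and group; points are arrays, and black bars are group means with SD. At 43 days the centred median averaged 2.47 in dKO chow and 2.98 in HET chow hearts, while the array median itself averaged 5.88 in dKO chow and 5.53 in HET chow hearts.

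Between dKO and HET hearts on chow the call counts followed the same order of ages. At 21 days 0 of 35 genes were called in limma, with 2 at an unadjusted p under 0.05, beside 4.9% of all tested genes, and the median difference was 0.14 for the subunits and 0.11 for all genes. At 31 days 16 of 35 fell and 2 rose, beside 22.6% and 8.71% of all genes, with a median of -0.34 against -0.14 for all genes. At 43 days 17 of 35 fell and 1 rose, beside 28.1% and 19.6%, with a median of -0.31 against -0.085. The share that fell was above the background share at both ages, and the share that rose was below it. The count at 31 days depends on the array sets, of which the smaller holds 0 of 10 dKO and 6 of 10 HET hearts at that age. With the set as a block 10 fell and 1 rose at 31 days (18.6% of all genes called in either direction), and within the larger set 5 fell and 1 rose (10.8%). Within the larger set the falls of Psme1 (-0.53, adjusted p = 0.101), Psma1 (-0.44, adjusted p = 0.0926), Psma3 (-0.47, adjusted p = 0.0504) and Psmc1 (-0.29, adjusted p = 0.251) and the rise of Psmd8 (0.32, adjusted p = 0.195) at 31 days were not called. At 43 days 16 genes were called with the block and 15 within the larger set. The share of all genes called in these fits at 43 days is not given here, so the counts have no background beside them. As deposited the split was even: 2 fell and 2 rose at 31 days (all genes 3.91% and 20.4%), and 5 fell and 5 rose at 43 days (all genes 11.6% and 37.3%). The median difference of the subunits as deposited was -0.025 at 31 days and 0.034 at 43 days, and below the median of all genes both times. Genes called in 1 direction as deposited, after centring and after quantile normalization are named below as called under all 3 scalings. Those were Psmb7 and Psme1 (lower) and Psmd8 and Psme3 (higher) at 31 days, where 3.84% and 8.02% of all genes were so called. At 43 days they were Psmb2, Psmb7, Psmc3, Psme1 and Psme4 (lower) and Psmd8 (higher), with 11.6% and 19.5% of all genes. These 5 of 35 lower genes are a share near that of all genes.

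**Figure D2:**
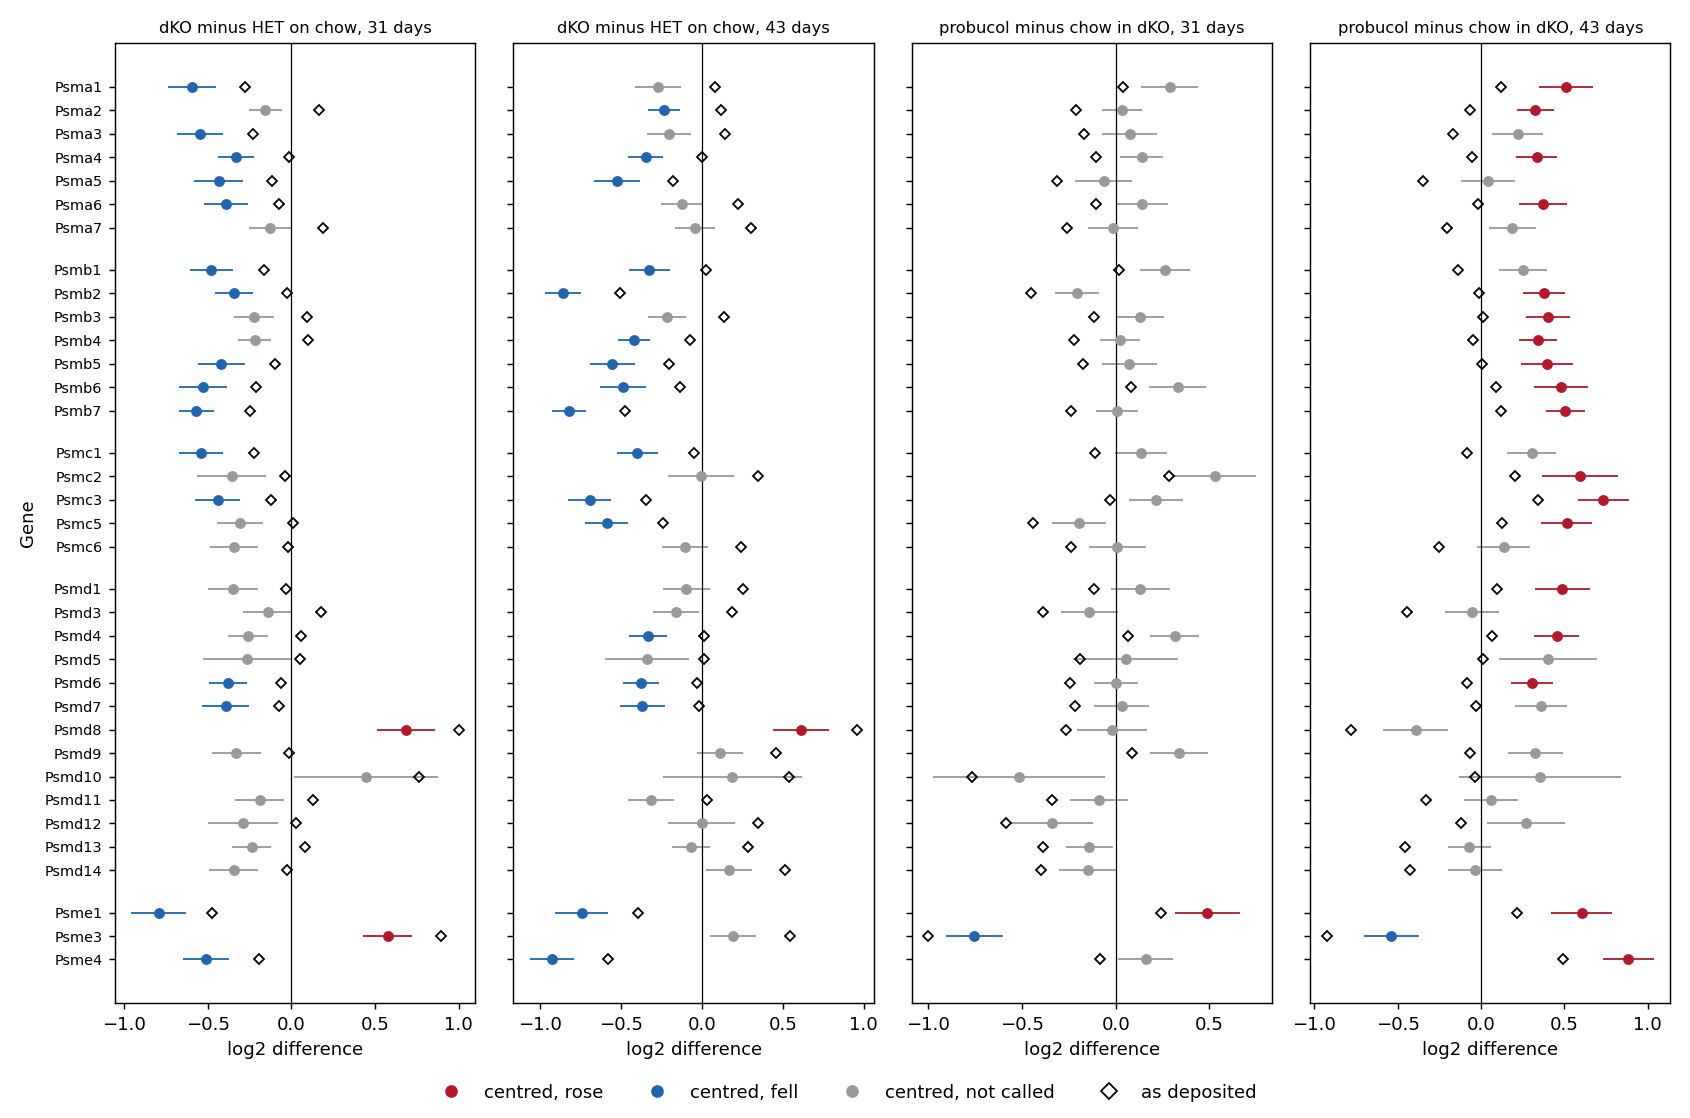
Log2 difference of each tested subunit gene, by class from the alpha ring (top) to the activators (bottom), in 4 comparisons; filled circles with standard errors are centred values (red rose, blue fell, grey not called), and open diamonds are values as deposited. In both genotype comparisons the circles lie left of the diamonds and mostly left of 0, with Psmd8 to the right (0.69 and 0.61), and with probucol at 43 days they lie to the right of the diamonds.

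The alpha ring, Psma1 to Psma7, gates the entry to the barrel and carries no proteolytic site. At 31 days 5 of its 7 genes fell (median -0.39) and at 43 days 3 of 7 (median -0.23), beside 22.6% and 28.1% of all genes. Psma1 at 31 days had centred levels of 0.81, 1.53 and 2.16 in dKO chow hearts, against 1.57, 2.10 and 2.47 in HET chow hearts (lowest, median and highest, n = 10 each). Of the 10 dKO hearts, 6 lay below every HET heart, and Psma1 fell by 0.59 ± 0.14 (adjusted p = 0.00103). Psma3 fell by 0.54 ± 0.14 (adjusted p = 0.00159) at 31 days. At 43 days Psma5 had 1.71, 2.13 and 2.61 in dKO chow hearts, against 2.09, 2.76 and 3.13 in HET chow hearts and fell by 0.53 ± 0.14 (adjusted p = 0.00144), the largest fall of the ring at that age. Neither Psma1 (-0.27 ± 0.14, adjusted p = 0.114) nor Psma3 (-0.20 ± 0.14, adjusted p = 0.218) was called at 43 days. As deposited none of these falls was called: Psma1 differed by -0.28 (adjusted p = 0.0921) and Psma3 by -0.23 (adjusted p = 0.104) at 31 days, and Psma5 by -0.18 (adjusted p = 0.341) at 43 days.

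In the beta ring, which holds the proteolytic sites, 5 of 7 genes fell at 31 days and 6 of 7 at 43 days. The medians were -0.42 and -0.49, and 22.6% and 28.1% of all genes fell at these ages. Psmb3, a structural subunit, was the beta gene not called at 43 days. Psmb7, the trypsin-like subunit, had centred levels at 43 days of 2.73, 2.84 and 3.52 in dKO chow hearts, against 3.45, 3.82 and 4.12 in HET chow hearts. Of the 12 dKO hearts 11 lay below every HET heart, and 1 dKO heart reached into the HET range. It fell by 0.82 ± 0.11 (adjusted p = 2e-10) at 43 days and by 0.57 ± 0.11 (adjusted p = 2.84e-05) at 31 days, and as deposited by 0.47 (adjusted p = 4.59e-06) at 43 days. Psmb2, a structural subunit of the ring, had 2.10, 2.53 and 2.82 in dKO chow hearts, against 2.60, 3.39 and 3.69 in HET chow hearts at 43 days, with 8 of 12 dKO hearts below every HET heart. Its fall was 0.86 ± 0.11 (adjusted p = 2.98e-10) at 43 days, while at 31 days it fell by 0.34 ± 0.11 (adjusted p = 0.0147), and as deposited the difference was -0.51 (adjusted p = 0.000515) at 43 days and, not called, -0.025 (adjusted p = 0.913) at 31 days. The Psmb2 difference at 31 days with array set blocked was -0.19 (adjusted p = 0.259), also not called. The other proteolytic subunits fell too: Psmb5, the chymotrypsin-like one, fell by 0.55 ± 0.14 (adjusted p = 0.000483), and Psmb6, the caspase-like one, fell by 0.49 ± 0.14 (adjusted p = 0.00284) at 43 days. As deposited neither was called at 43 days, with -0.20 (adjusted p = 0.238) for Psmb5 and -0.14 (adjusted p = 0.417) for Psmb6.

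Of the ATPases, 2 of 5 tested genes fell at 31 days (Psmc1 and Psmc3) and 3 of 5 at 43 days (Psmc1, Psmc3 and Psmc5). Of all genes 22.6% and 28.1% fell at these ages. Psmc3, one of the ATPases with a tail that helps to open the alpha ring, had centred levels at 43 days of 1.84, 2.14 and 3.13 in dKO chow hearts. In HET chow hearts they were 2.22, 2.96 and 3.25. Of 12 dKO hearts 9 lay below every HET heart, with the ranges overlapping. The fall was 0.69 ± 0.13 (adjusted p = 8.16e-06), and -0.34 (adjusted p = 0.00575) as deposited. Its other probe sets gave smaller differences at 43 days, -0.13 and -0.26, so the probe sets disagree on the size for this gene. Psmc1, an ATPase of the same ring, fell at 31 days by 0.54 ± 0.13 (adjusted p = 0.000936) and at 43 days by 0.40 ± 0.13 (adjusted p = 0.00722), with -0.22 (adjusted p = 0.169) and -0.049 (adjusted p = 0.756) as deposited. Psmc2 and Psmc6 were not called at either age, and Psmc2 differed by -0.0044 ± 0.20 at 43 days.

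The other subunits of the regulatory particle were the class with the fewest calls for its size. Psmd6 and Psmd7 fell at 31 days and Psmd4, Psmd6 and Psmd7 at 43 days, out of 13 tested. These shares lay below the 22.6% and 28.1% of all genes that fell, and the class medians were -0.26 and -0.095. Psmd4, a receptor for ubiquitin chains, fell by 0.33 ± 0.12 (adjusted p = 0.0163) at 43 days. As deposited none of these falls was called, and Psmd4 turned sign, at 0.016 (adjusted p = 0.932). Psmd6 and Psmd7 differed as deposited by -0.028 (adjusted p = 0.874) and -0.019 (adjusted p = 0.918) at 43 days, and by -0.060 (adjusted p = 0.772) and -0.073 (adjusted p = 0.73) at 31 days. Psmd14, the subunit that removes ubiquitin chains from substrates, was not called (0.17 ± 0.14, adjusted p = 0.355). Psmd8, a subunit of the lid, was the gene of this class that rose, at both ages. Its centred levels at 31 days were 1.16, 1.60 and 1.76 in dKO chow hearts, against -0.67, 0.99 and 1.61 in HET chow hearts, and 5 of 10 dKO hearts lay above every HET heart. At 43 days they were 1.40, 1.76 and 1.93 in dKO chow hearts, against 0.27, 1 and 1.84 in HET chow hearts, with 2 of 12 dKO hearts above every HET heart. At 31 days Psmd8 rose by 0.69 ± 0.18 (adjusted p = 0.00169) and at 43 days it rose by 0.61 ± 0.17 (adjusted p = 0.0021), and HET hearts were spread more widely than dKO hearts. The lowest HET hearts, replicate 7 at 31 days and replicate 9 at 43 days, are among the arrays that lay apart, and without the 4 such arrays the rise at 31 days was 0.51 (adjusted p = 0.000902), while at 43 days it was 0.51 (adjusted p = 0.00021). When the array set entered as a block, the rise at 31 days was 0.44 (adjusted p = 0.0716) and no longer called.

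The activators moved in opposite directions. Psme4, the PA200 cap, had centred levels at 43 days of 2.13, 2.51 and 3.68 in dKO chow hearts, against 2.78, 3.55 and 3.88 in HET chow hearts, and 11 of 12 dKO hearts lay below every HET heart. It fell by 0.93 ± 0.14 (adjusted p = 1.55e-08), the largest fall of any subunit gene at that age, and by 0.51 ± 0.14 (adjusted p = 0.00308) at 31 days, with -0.58 (adjusted p = 2.01e-05) and -0.19 (adjusted p = 0.241) as deposited. The fall at 43 days was thus called as deposited too, and that at 31 days was not. Psme1, the PA28 alpha cap, had 2.25, 2.73 and 3.46 in dKO chow hearts, against 2.81, 3.69 and 3.99 in HET chow hearts at 31 days, with 7 of 10 dKO hearts below every HET heart. Its fall at 31 days was 0.79 ± 0.16 (adjusted p = 0.00012), and its fall at 43 days was 0.74 ± 0.16 (adjusted p = 6.98e-05). It is itself induced by interferon in many cells, and so is usually grouped with both the constitutive and the inducible genes. Psme3, the nuclear PA28 gamma cap, had 1.66, 2.37 and 2.72 in dKO chow hearts, against 0.81, 1.80 and 2.32 in HET chow hearts at 31 days, and 5 of 10 dKO hearts lay above every HET heart. Psme3 rose by 0.58 ± 0.15 (adjusted p = 0.00147) at 31 days, and at 43 days it was 0.19 ± 0.14 (adjusted p = 0.272) after centring and 0.54 (adjusted p = 0.00193) as deposited. At 21 days none of the 3 was called, with Psme1 at -0.034 ± 0.17 (adjusted p = 0.926), Psme3 at 0.30 ± 0.15 (adjusted p = 0.231) and Psme4 at 0.20 ± 0.14 (adjusted p = 0.438).

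The promoters of the activators, which differed in direction, and of Psmd8, the gene of its class that rose, are shown here so that the windows can be compared. They are RefSeq sequences of build GRCm38.p6, from 250 bases before to 50 bases from the transcript start, read 5′ to 3′ along the gene. They lie at Psme4 chr11:30771525-30771824 on the plus strand, Psme1 chr14:55578244-55578543 on the plus strand, Psmd8 chr7:29180624-29180923 on the minus strand and Psme3 chr11:101315963-101316262 on the plus strand. Capitals mark the core of the antioxidant response element, TGACNNNGC, which is bound by the proteasome regulators Nfe2l1 and Nfe2l2, or the CCAAT box, each searched on both strands.
Psme4: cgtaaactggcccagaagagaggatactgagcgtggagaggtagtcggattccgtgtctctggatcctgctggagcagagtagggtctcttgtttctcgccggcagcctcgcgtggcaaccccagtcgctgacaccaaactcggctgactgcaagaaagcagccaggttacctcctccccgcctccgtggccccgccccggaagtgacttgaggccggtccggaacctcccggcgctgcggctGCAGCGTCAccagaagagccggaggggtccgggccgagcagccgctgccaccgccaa
Psme1: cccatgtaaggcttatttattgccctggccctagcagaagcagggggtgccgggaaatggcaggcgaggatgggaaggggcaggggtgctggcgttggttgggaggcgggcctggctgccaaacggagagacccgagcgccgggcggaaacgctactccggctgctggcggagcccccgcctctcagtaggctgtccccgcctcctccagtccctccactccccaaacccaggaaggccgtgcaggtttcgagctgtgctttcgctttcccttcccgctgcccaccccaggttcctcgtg
Psmd8: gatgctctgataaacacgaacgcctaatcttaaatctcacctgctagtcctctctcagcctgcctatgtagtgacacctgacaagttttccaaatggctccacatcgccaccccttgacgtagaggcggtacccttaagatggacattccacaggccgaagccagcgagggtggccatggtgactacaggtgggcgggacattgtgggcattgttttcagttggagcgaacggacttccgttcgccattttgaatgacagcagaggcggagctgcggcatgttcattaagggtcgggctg
Psme3: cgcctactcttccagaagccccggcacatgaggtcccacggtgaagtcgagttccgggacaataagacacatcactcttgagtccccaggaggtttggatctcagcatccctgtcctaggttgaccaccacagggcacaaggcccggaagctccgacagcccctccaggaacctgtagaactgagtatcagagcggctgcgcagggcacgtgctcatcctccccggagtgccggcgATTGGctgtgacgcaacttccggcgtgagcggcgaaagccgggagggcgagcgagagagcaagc
Psme4 held 1 match to the antioxidant core, on its minus strand, and Psme3 held 1 CCAAT box, also on the minus strand. No letters of either motif were found in the windows of Psme1 and Psmd8. Of the 37 genes, 31 had a promoter in the table, and 6 of the 31 (19.4%) held the antioxidant core, against 14% of all genes. The CCAAT box was in 12 of 31 (38.7%), against 41.1% of all genes. The presence of the letters is a description of the window only.

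A single dKO chow heart at 43 days, replicate 2, set the top of the dKO range for Psmb7, Psmc3, Psme1 and Psme4, at 3.52, 3.13, 3.60 and 3.68. Its Psmb2 and Psmd8 levels, 2.28 and 1.48, lay within those of the other 11. The log2 3′ to 5′ ratio of its Gapdh control was 1.28, against -0.31 to 0.16 in the other dKO chow hearts at 43 days. Its summed macrophage signal was 334 times the array median, within the 226 to 390 of the others, and its cardiomyocyte sum was 1123, above their 588 to 977. Without it the fall at 43 days was 1.03 for Psme4 (adjusted p = 8.85e-11) and 0.78 for Psmc3 (adjusted p = 2.53e-07), and 18 genes fell and 1 rose.

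**Figure D3:**
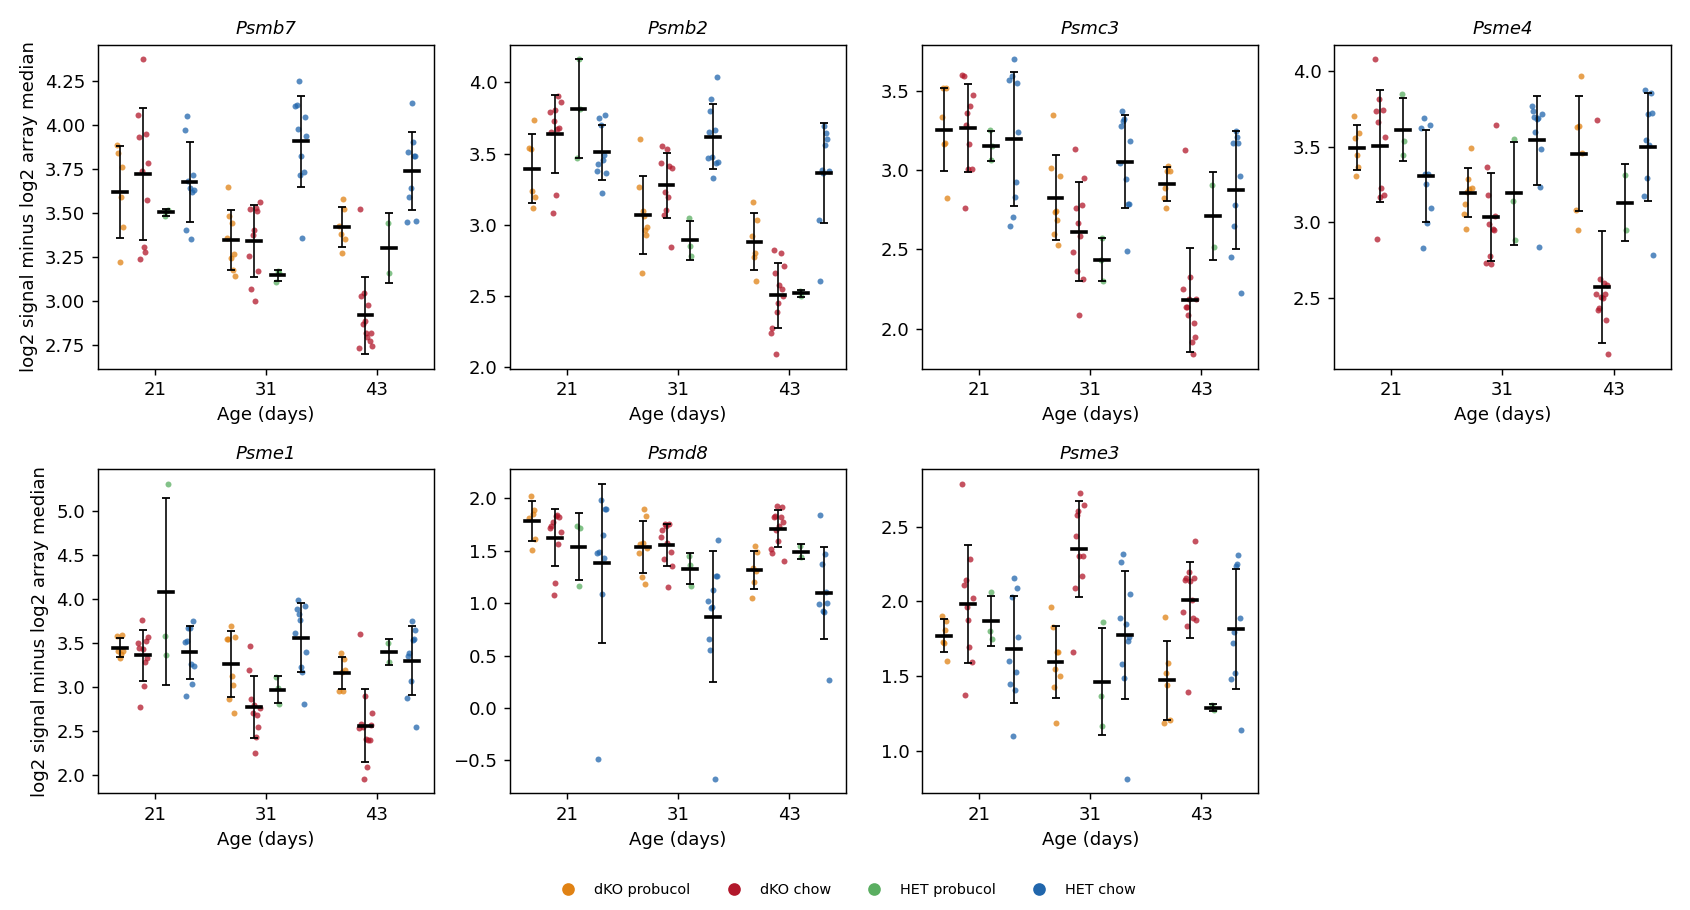
Centred levels of the 7 subunit genes called under all 3 scalings in a genotype comparison, on each array by age and group; points are arrays, and black bars are group means with SD. Psmb7, Psmb2, Psmc3, Psme4 and Psme1 have their lowest group mean in dKO chow hearts at 43 days (Psmb7 2.92), and Psme3 has its highest in dKO chow hearts at 31 days (2.35).

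The genotype difference also changed between ages, tested as an interaction on chow. Against 21 days, the difference was lower at 31 days for 19 of 35 genes (all genes 20.3%) and at 43 days for 16 of 35 (all genes 23.5%), and higher for 0 at both ages (all genes 4.62% and 10%). At 43 days the largest changes were those of Psme4, by -1.12 ± 0.20 (adjusted p = 2.95e-06), Psmb2, by -0.99 ± 0.16 (adjusted p = 5.39e-07), and Psmb7, by -0.87 ± 0.15 (adjusted p = 2.65e-06). For Psma1, Psme1 and Psma5 the change at 31 days was -0.76 ± 0.21 (adjusted p = 0.00555), -0.76 ± 0.23 (adjusted p = 0.0135) and -0.72 ± 0.21 (adjusted p = 0.00835). Under all 3 scalings Psmb7 and Psme4 were lower and 0 higher at 43 days (all genes 6.14% and 9.54%) and 0 genes at 31 days (all genes 0.476%). As deposited 0 genes were lower and 3 higher at 31 days (all genes 0.476% and 14.4%). The 21-day groups hold 6 of 10 dKO and 2 of 9 HET hearts of the smaller array set, and with that set as a block 0 genes were called at 31 days. At 43 days 2 were lower and 5 higher as deposited (all genes 6.14% and 33.2%). Both interactions share the 21-day hearts. In HET chow hearts themselves, 43 against 21 days, Psmc5 rose by 0.53 ± 0.14 (adjusted p = 0.0282) and Psma7 fell by 0.58 ± 0.13 (adjusted p = 0.00773), beside 1.04% and 1.71% of all genes, and as deposited 6 rose and 0 fell (all genes 19.2% and 0.494%). The rise of Psmc5 was called under all 3 scalings, as were 1.02% of all genes, and the fall of Psma7 was not called as deposited (-0.29, adjusted p = 0.0623). In a fit of only the groups compared neither was called (adjusted p = 0.188 for Psmc5 and 0.128 for Psma7). Psmc5 was not called within the larger (adjusted p = 0.11) or the smaller array set (adjusted p = 0.343), nor Psma7 within the smaller one (adjusted p = 0.819).

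Probucol in dKO hearts was set against chow at each age. At 43 days 18 of 35 genes rose and 1 fell, beside 21.6% and 17.4% of all genes, and the median difference was 0.34 against 0.074 for all genes. At 31 days 1 rose and 1 fell (all genes 7.99% and 11.9%), and at 21 days 0 of 35 were called in limma, with 1 at an unadjusted p under 0.05 (all genes 1.27%). As deposited the split turned at 43 days, with 2 higher and 5 lower (all genes 8.2% and 37.7%), and at 31 days 8 were lower and 0 higher (all genes 27.1% and 2.12%). The comparison at 43 days shares its dKO chow hearts with the genotype comparison, so the opposite signs of the 2 are not independent. By class 4 of 7 alpha, 6 of 7 beta, 3 of 5 ATPase, 3 of 13 other regulatory and 2 of 3 activator genes rose. Psme4 had centred levels of 2.95, 3.54 and 3.97 in dKO probucol hearts, against 2.13, 2.51 and 3.68 in dKO chow hearts at 43 days, and rose by 0.88 ± 0.15 (adjusted p = 1.61e-06), or by 0.49 (adjusted p = 0.00134) as deposited. All 6 probucol hearts lay above the dKO chow median, and 1 chow heart reached into their range. Psmc3 had 2.76, 2.94 and 3.03 in dKO probucol hearts, against 1.84, 2.14 and 3.13 in dKO chow hearts, and rose by 0.73 ± 0.15 (adjusted p = 3.99e-05), with 0.34 (adjusted p = 0.0169) as deposited and 0.49 and 0.65 on its other probe sets. These were the rises called under all 3 scalings, at which 8.2% of all genes were called.

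Other genes rose with probucol at 43 days after centring and not as deposited. Psme1 rose by 0.60 ± 0.18 (adjusted p = 0.00543), Psmc2, an ATPase, by 0.59 ± 0.23 (adjusted p = 0.0325), and Psmc5, another ATPase, by 0.51 ± 0.15 (adjusted p = 0.00448). Psma1 rose by 0.51 ± 0.16 (adjusted p = 0.00803), Psmb7 by 0.51 ± 0.12 (adjusted p = 0.000311) and Psmd4 by 0.45 ± 0.14 (adjusted p = 0.00474). As deposited the same 6 differed by 0.21, 0.20, 0.12, 0.12, 0.12 and 0.064, and none was called. Psme3 was the gene that fell, with 1.19, 1.48 and 1.89 in dKO probucol hearts, against 1.39, 2.08 and 2.40 in dKO chow hearts at 43 days and a fall of 0.54 ± 0.16 (adjusted p = 0.00527). At 31 days Psme3 had 1.19, 1.60 and 1.96 in dKO probucol hearts, against 1.66, 2.37 and 2.72 in dKO chow hearts, and 5 of 8 probucol hearts lay below every dKO chow heart. It fell by 0.75 ± 0.15 (adjusted p = 0.000153), and the falls at both ages were called under all 3 scalings, as were 11.5% of all genes at 31 days and 17.2% at 43 days. Psme1 rose by 0.49 ± 0.17 (adjusted p = 0.0349) at 31 days, with 0.24 (adjusted p = 0.227) as deposited, and it was not called with the actin ratio (adjusted p = 0.0927) or the Gapdh ratio (adjusted p = 0.0539) as a covariate. Uncalled at 31 days were Psme4 (0.16 ± 0.15), Psmc2 (0.53 ± 0.22), Psmd4 (0.31 ± 0.13), Psma1 (0.29 ± 0.15) and Psmb6 (0.33 ± 0.15). After quantile normalization 7 genes were called at 31 days. Among them Psmc2 (adjusted p = 0.0162), Psmd4 (adjusted p = 0.0123), Psma1 (adjusted p = 0.0345) and Psmb6 (adjusted p = 0.0216) were higher and Psme3 was lower. The share of all genes called after quantile normalization is not given here. At 21 days the activators differed by 0.087 ± 0.19 (Psme1), -0.21 ± 0.17 (Psme3) and -0.011 ± 0.16 (Psme4). Psmd8, which rose in dKO chow hearts, had 1.05, 1.32 and 1.54 in dKO probucol hearts, against 1.40, 1.76 and 1.93 in dKO chow hearts at 43 days and differed by -0.39 ± 0.20 (adjusted p = 0.106), and by -0.78 (adjusted p = 0.000589) as deposited.

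Few HET mice received probucol, so their comparison with HET chow hearts was taken as the mean over the 3 ages. Of 35 genes 2 fell and 0 rose, beside 2.4% and 0.406% of all genes. Psmb7 had centred levels of 3.48, 3.51 and 3.52 in the 3 HET probucol hearts at 21 days, 3.11, 3.16 and 3.17 in the 3 at 31 days, and 3.16 and 3.44 in the 2 at 43 days. In HET chow hearts the lowest, median and highest were 3.35, 3.64 and 4.05 at 21 days, 3.35, 3.96 and 4.25 at 31 days and 3.45, 3.82 and 4.12 at 43 days. At 31 and 43 days every HET probucol heart lay below every HET chow heart, and at 21 days the groups overlapped. Psmb2 went the other way at 21 days, with 3.47, 3.82 and 4.16 in HET probucol and 3.23, 3.46 and 3.77 in HET chow hearts. It had 2.78, 2.85 and 3.05 in HET probucol and 3.33, 3.56 and 4.04 in HET chow hearts at 31 days. At 43 days Psmb2 was 2.50 and 2.54 in HET probucol hearts, below the lowest HET chow heart at 2.60, and near the dKO chow median of 2.53. Over the ages Psmb7 fell by 0.46 ± 0.097 (adjusted p = 0.00298) and Psmb2 fell by 0.42 ± 0.10 (adjusted p = 0.0102), both under all 3 scalings, as did 1.69% of all genes. Without HET probucol 43 days replicate 2 the count was 0.

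The effect of probucol differed between the genotypes for 5 of 35 genes, all higher in dKO (all genes 11.2% higher and 8.94% lower): Psmb2, Psmb6, Psmb7, Psmc3 and Psme4. That share is near the share of all genes that were higher. A higher effect need not be a rise in dKO hearts, since the falls of Psmb2 and Psmb7 in HET hearts enter it. Psmb2 averaged 3.39 in dKO probucol and 3.64 in dKO chow hearts at 21 days, and 3.07 and 3.28 at 31 days. At 43 days it averaged 2.88 and 2.51. The differences of the effect, dKO minus HET, were 0.59 ± 0.12 (adjusted p = 8.9e-05) for Psmb7, 0.59 ± 0.15 (adjusted p = 0.00272) for Psmc3 and 0.48 ± 0.15 (adjusted p = 0.0174) for Psme4. As deposited Psme4 was not called, at 0.32 (adjusted p = 0.0762). Under all 3 scalings Psmb7 and Psmc3 were higher and 0 lower, beside 5.4% and 8.8% of all genes, as deposited 2 were higher and 1 lower (all genes 5.47% and 13.8%), and 3 genes were called without HET probucol 43 days replicate 2. Between dKO and HET hearts on probucol 0 of 35 genes were called in limma, and 0 had an unadjusted p under 0.05, beside 0.0705% of all genes called. The largest differences there were -0.19 (Psme1) and 0.23 (Psmc3). The Psme1 value includes HET probucol 21 days replicate 3 at 5.30, against 3.58 and 3.36 in the other hearts of that group and at most 3.99 in the other groups.

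Of the inducible counterparts of the proteolytic subunits, Psmb8 and Psmb9 rose in dKO chow hearts at 43 days. Psmb8, which replaces Psmb5, had centred levels at 43 days of 1.49, 1.98 and 2.98 in dKO chow hearts, against 0.50, 1.30 and 1.75 in HET chow hearts. It rose by 0.77 ± 0.23 (adjusted p = 0.0038), and by 1.12 (adjusted p = 3.85e-05) as deposited, while Psmb5 fell by 0.55 ± 0.14 after centring. Psmb9, which replaces Psmb6, had -0.096, 0.69 and 1.13 in dKO chow and -1.80, -0.53 and 0.60 in HET chow hearts at 43 days, and rose by 1.17 ± 0.41 (adjusted p = 0.0128). Psmb10, which replaces Psmb7, averaged 2.47 ± 0.21 in dKO chow and 2.62 ± 0.31 in HET chow hearts (SD, n = 12 and 9) and differed by -0.16 ± 0.17 (adjusted p = 0.486). Thus 2 of the 3 inducible genes were higher in dKO hearts at 43 days, and their groups overlapped. With probucol at 43 days Psmb8 fell by 0.71 ± 0.26 (adjusted p = 0.0239), Psmb9 differed by -0.60 ± 0.46 (adjusted p = 0.319) and Psmb10 by 0.10 ± 0.20 (adjusted p = 0.728). With the class I presentation genes Tap1, Tap2, Tapbp and B2m, 5 of 6 tested genes rose in dKO chow hearts at 43 days (median 0.73). With probucol 4 of 6 fell (median -0.61). Of all genes 19.6% rose in the first comparison and 17.4% fell in the second. Tapbp, which loads peptides on class I molecules, rose by 0.69 ± 0.14 (adjusted p = 1.83e-05), and B2m, the class I light chain, by 0.96 ± 0.23 (adjusted p = 0.000358). B2m was higher at 21 days too, by 1.10 ± 0.24 (adjusted p = 0.00223), and at 31 days, by 0.68 ± 0.24 (adjusted p = 0.0218).

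**Figure D4:**
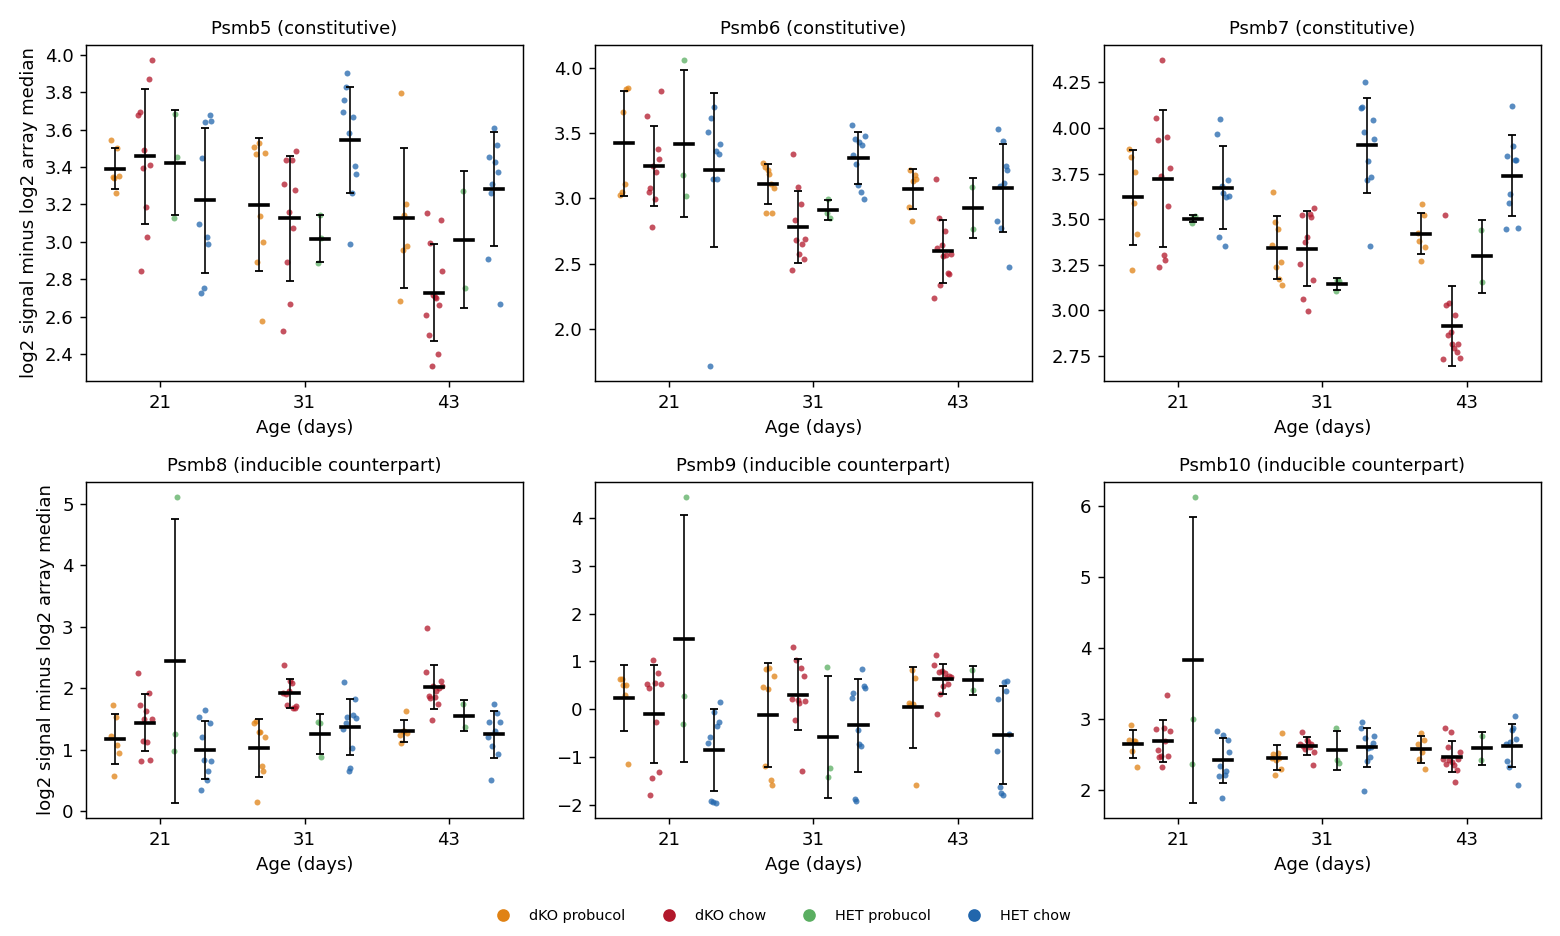
Centred levels of the proteolytic subunit genes (top) and of the inducible gene that replaces each (bottom), on each array by age and group; points are arrays, and black bars are group means with SD. At 43 days the dKO chow mean is below the HET chow mean for Psmb5, Psmb6 and Psmb7 and above it for Psmb8 and Psmb9, and 1 HET probucol heart at 21 days stands far above all others for Psmb8, Psmb9 and Psmb10 (5.11, 4.43 and 6.13).

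Genes that assemble or regulate the proteasome formed another list, of which 11 of 15 were on the array and all 11 were tested. At 43 days 7 fell and 1 rose in dKO chow hearts (median -0.45), against 3 and 1 as deposited. Of all genes 28.1% fell and 19.6% rose there after centring, and 11.6% and 37.3% as deposited. With probucol at 43 days 6 rose and 0 fell (median 0.40), against 2 and 1 as deposited. Of all genes 21.6% rose and 17.4% fell with probucol after centring, and 8.2% and 37.7% as deposited. Psmg1 and Psmg2 form the chaperone pair that builds the alpha ring, and they fell by 0.86 ± 0.20 (adjusted p = 0.000136) and by 1.68 ± 0.30 (adjusted p = 2.19e-06) at 43 days. As deposited Psmg1 differed by -0.51 (adjusted p = 0.0184) and Psmg2 by -1.33 (adjusted p = 6.67e-05). With probucol at 43 days Psmg1 rose by 1.08 ± 0.22 (adjusted p = 3.57e-05) and Psmg2 by 1.42 ± 0.34 (adjusted p = 0.000472). Psmg3, a chaperone that works with Psmg4, fell by 0.60 ± 0.11 (adjusted p = 2.63e-06) in dKO chow hearts and rose by 0.59 ± 0.12 (adjusted p = 4.89e-05) with probucol, and was not called as deposited in either comparison. Nfe2l1, the transcription factor that raises subunit genes when proteasome activity is short, fell at 31 days by 0.40 ± 0.11 (adjusted p = 0.00306), and at 43 days by 0.74 ± 0.11 (adjusted p = 7.6e-09), with -0.39 (adjusted p = 0.00637) as deposited at 43 days and, not called, -0.079 (adjusted p = 0.686) at 31 days. At 31 days 4 of the 11 fell and 0 rose after centring (all genes 22.6% and 8.71%), against 0 and 0 as deposited. The related factor Nfe2l2 was the gene that rose at 43 days, by 0.29 ± 0.11 (adjusted p = 0.0313). Nfe2l1 was not called with probucol at 43 days (0.25 ± 0.12, adjusted p = 0.0917).

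Of the ubiquitin supply and delivery genes 1 of 6 tested genes was lower and 0 higher at 43 days in dKO chow hearts (median -0.12). Of all genes 28.1% were lower and 19.6% higher. As deposited 0 of the 6 were lower and 2 higher, beside 11.6% and 37.3% of all genes. At 31 days 2 of 6 fell: Vcp, the segregase that extracts ubiquitinated proteins, by 0.29 ± 0.10 (adjusted p = 0.0257), and its cofactor Ufd1 by 0.38 ± 0.14 (adjusted p = 0.0299), beside 22.6% of all genes. As deposited 0 of 6 were called at 31 days, with 0.026 (adjusted p = 0.882) for Vcp and -0.058 (adjusted p = 0.81) for Ufd1. With probucol at 43 days Vcp rose by 0.35 ± 0.12 (adjusted p = 0.0125), and as deposited differed by -0.040 (adjusted p = 0.807). Among ubiquitin ligases of muscle 3 of 6 tested genes fell in dKO chow hearts at 43 days (median -0.19), beside 28.1% of all genes. With probucol 2 of 6 rose (median 0.015), beside 21.6%. As deposited 1 of 6 fell in dKO chow hearts at 43 days (median 0.16), beside 11.6% of all genes. With probucol the direction turned as deposited, with 0 higher and 2 lower (median -0.37), beside 8.2% and 37.7% of all genes. Ube3a, a ligase that works with the proteasome, fell by 0.89 ± 0.23 (adjusted p = 0.000832) and rose with probucol by 0.91 ± 0.26 (adjusted p = 0.00329), and as deposited differed by -0.54 (adjusted p = 0.0385) and, not called, by 0.52 (adjusted p = 0.0866). Nedd4 fell by 0.40 ± 0.12 (adjusted p = 0.00283) and Itch by 0.29 ± 0.11 (adjusted p = 0.021), both related ligases, and neither was called as deposited.

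Markers of other cell types also differed between these groups. At 21 days 8 of 12 macrophage genes rose in dKO chow hearts (median 0.62), where 0 subunit genes were called. Of 11 cardiomyocyte genes 0 were called there, beside 4.9% of all genes. With probucol at 31 days 10 of 11 cardiomyocyte genes rose and 10 of 12 macrophage genes fell. Of the 35 subunit genes 1 rose and 1 fell there, beside 7.99% and 11.9% of all genes. At 43 days in dKO chow hearts all 11 tested cardiomyocyte genes fell (median -0.88), beside 28.1% of all genes. There 12 of 12 macrophage genes (median 2.42) and 7 of 9 fibroblast and matrix genes rose (median 2.14), beside 19.6% of all genes. Of 7 endothelial genes 1 rose and 1 fell, and 2 of 3 erythroid genes rose. As deposited 9 of 11 cardiomyocyte genes fell at 43 days and 5 of 11 at 31 days, beside 11.6% and 3.91% of all genes. The summed cardiomyocyte signal, in multiples of the array median, was 588, 810 and 1123 in dKO chow hearts at 43 days, against 805, 1417 and 1726 in HET chow hearts. The summed macrophage signal was 226, 303 and 390 in dKO chow hearts and 44.3, 62.8 and 82.6 in HET chow hearts, with no overlap. At 31 days 11 of 11 cardiomyocyte genes fell and 10 of 12 macrophage genes rose, beside 22.6% and 8.71% of all genes. The cardiomyocyte sum at that age was 755, 1029 and 1419 in dKO chow and 1064, 1480 and 1779 in HET chow hearts. With probucol at 43 days 11 of 11 cardiomyocyte genes rose and 12 of 12 macrophage genes fell, beside 21.6% and 17.4% of all genes. The cardiomyocyte sum was 1240, 1505 and 1705 in dKO probucol hearts at that age. Of the T and B cell markers Cd3g was at the floor on most arrays. The part of these markers in the subunit differences was not tested. The 3′ to 5′ ratio of the actin control, a sign of RNA quality, averaged -0.12 ± 0.31 in dKO probucol (log2, SD, n = 6), 0.17 ± 0.13 in dKO chow (n = 12) and 0.11 ± 0.43 in HET chow hearts (n = 9) at 43 days. At 31 days it was 0.035 ± 0.23 in dKO probucol (n = 8), 0.39 ± 0.35 in dKO chow and 0.24 ± 0.39 in HET chow hearts (n = 10 each). At 21 days it was 0.092 ± 0.19 in dKO probucol (n = 6), -0.16 ± 0.11 in dKO chow (n = 10) and 0.065 ± 0.30 in HET chow hearts (n = 9).

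The remaining genes add little that passed the test. Psmd10, the assembly chaperone gankyrin, had the largest standard error of the tested subunit genes at 43 days, with differences of 0.45 ± 0.43 at 31 days and 0.19 ± 0.43 at 43 days between dKO and HET chow hearts. The chaperone genes Psmd5 (-0.34 ± 0.26) and Psmd9 (0.11 ± 0.14) were not called at 43 days. At 21 days the smallest unadjusted p between genotypes was that of Psmd3, a subunit of the lid, with 0.34 ± 0.15 (adjusted p = 0.171), and in the other classes Psmc5 (0.19 ± 0.14), Psma5 (0.29 ± 0.15) and Psmb3 (0.22 ± 0.12) came first. With probucol at 21 days it was Psmd13, another lid subunit, with -0.30 ± 0.13 (adjusted p = 0.3), and in the other classes Psmc1 (-0.14 ± 0.15), Psma2 (-0.15 ± 0.11) and Psmb2 (-0.24 ± 0.13). Psmc4 and Psmd2, below the filter, differed by 0.44 ± 0.42 and 0.12 ± 0.34 between dKO and HET chow hearts at 43 days in a fit without the filter. There Psmc4 was called in 1 comparison, the change of the genotype difference between 21 and 31 days (2.12 ± 0.60, adjusted p = 0.0109), and Psmd2 in none. Of the 7 genes with several probe sets, Psmb1 had 2 bright ones that gave -0.32 and -0.38 at 43 days, and Psmb5 had 2 that gave -0.55 and -0.74. Others disagreed in size: Psmb4, which was called, gave -0.42 on the chosen and -0.16 on its second probe set above the filter, and Psmd11 gave -0.31 on the chosen and -0.0059 and -0.31 on the others.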

How the data were processed

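RNA from whole hearts, 1 mouse per array by the series' design text, was measured on 88 Affymetrix arrays. The deposited values are a linear intensity per probe set, which the authors made with MAS5 per the submitters' processing notes. No source used here states the scaling between arrays, and array medians ran between 27.8 and 75.4. Signals were floored at 4.22, the 10th percentile, put on the log2 scale and centred on each array's median. The 60% of probe sets with the highest mean signal were kept, and the brightest one stood for a gene, giving 5671 genes.

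All 12 groups were fitted in a single limma model (limma 3.58.1, R 4.3.3, data.table version 1.17.8) with Benjamini-Hochberg adjustment over all genes. The number of arrays limits the precision. The procedure was tested on simulated data. The alternatives were signals as deposited, quantile normalization, no filter, other floors, fits of only the groups compared, blocks, covariates and arrays left out. One array, dKO chow 21 days replicate 2, has a description that gives 31 days. Its title, source and age field were followed, and the fits were repeated without it. Same-numbered mice did not deviate together (correlations between -0.165 and 0.336), so numbers were not taken as pairs. The probe annotation gave 1 symbol to 10833 probe sets, several to 396 and none to 1193.

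The genes and lists were chosen with earlier results of these data known. Named genes were, per comparison, up to 5 rises and 5 falls past the threshold, the smallest p in each class and the activators, with up to 3 each way in the other contrasts and up to 3 per companion list. Other genes named were chosen after their values were seen.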

Additional observations from a re-analysis of the deposited data

Results flagged for a closer look

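Of 104 tests of a gene's lowest or highest heart in a group of 4 to 10, 5 stood apart, and chance gives about 1 in 20 such tests. Psma1 in dKO probucol 21 days replicate 6 was 2.24, against 1.82 to 1.97 in the rest of its group. Psmc5 in dKO chow 21 days replicate 3 was 1.29, against 1.95 to 2.69 in the rest of its group. Psma3 in HET chow 31 days replicate 7 was 3.74, against 4.36 to 4.92 in the rest of its group. Psmd8 was low in the same heart, at -0.67, against 0.55 to 1.61 in the rest of its group, and in HET chow 21 days replicate 2, at -0.49, against 1.09 to 1.99 in the rest of its group. Both of those HET arrays also lay apart over all genes.

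Genotype differences on chow that changed with age by a limma interaction test, 31 against 21 days, were -0.76 ± 0.21 for Psma1 (adjusted p = 0.00555), -0.76 ± 0.23 for Psme1 (adjusted p = 0.0135) and -0.72 ± 0.21 for Psma5 (adjusted p = 0.00835). As deposited none of these was called (adjusted p = 0.392, 0.47 and 0.577), nor after quantile normalization (adjusted p = 0.0535, 0.152 and 0.182). With the array set as a block none was called either (adjusted p = 0.212, 0.142 and 0.271). At 43 against 21 days the changes were -1.12 ± 0.20 for Psme4 (adjusted p = 2.95e-06), -0.99 ± 0.16 for Psmb2 (adjusted p = 5.39e-07) and -0.87 ± 0.15 for Psmb7 (adjusted p = 2.65e-06). That of Psmb2 was not called as deposited (-0.42, adjusted p = 0.0577). The probucol effect differed between dKO and HET hearts by 0.59 ± 0.12 for Psmb7 (adjusted p = 8.9e-05), 0.59 ± 0.15 for Psmc3 (adjusted p = 0.00272) and 0.48 ± 0.15 for Psme4 (adjusted p = 0.0174). That of Psme4 was not called as deposited (0.32, adjusted p = 0.0762).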

How the results depend on the processing

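Counts are of subunit genes called of 35, in either direction. The share of all genes called also moved with the setting. For genotype at 31 days 22.6% of all genes fell after centring and 3.91% as deposited. Shares of all genes are not given beside the counts below, so a changed count alone is not a result about the subunits. As deposited, 4 were called between dKO and HET chow hearts at 31 days and 10 at 43 days, 8 and 7 for probucol in dKO hearts at 31 and 43 days, 3 and 7 for the change of the genotype difference at 31 and 43 days, 6 for age in HET chow hearts and 3 for the difference of the probucol effect. Quantile normalization gave 11 for genotype at 31 days, 7 for probucol at 31 days, and 0 and 10 for the changes at 31 and 43 days. Fitting only the groups compared gave 12 for the change at 31 days and 0 for age. The array set as a block gave 11 for genotype at 31 days and 0 for the change at 31 days. With it, signals as deposited gave 3 and 10 for genotype at 31 and 43 days, 7 and 7 for probucol, 0 and 5 for the changes, 8 for age and 3 for the difference of the probucol effect, and quantile normalization gave 10, 9, 0 and 8 for genotype and probucol at 31 days and the changes at 31 and 43 days. Within the larger set 6, 0 and 4 were called for genotype at 31 days and the changes, and within the smaller set 0 for age. Probucol at 31 days had 1 call with the replicate number as a replicate block, with the Gapdh or the actin ratio as a covariate and without the arrays that lay apart, and the difference of the probucol effect had 8 with the Gapdh ratio. The replicate block moved no other count past 1.5 times. Fits within 1 array set, another scaling combined with the set block, and fits without the arrays that lay apart or without dKO chow 43 days replicate 2 were chosen after seeing the data. Only 10 hearts were left out, 1 at a time. They were the HET probucol hearts, dKO chow 21 days replicate 2 and dKO chow 43 days replicate 2. These fits gave 18 to 19 calls for genotype at 43 days, 18 at 31 days and 0 at 21 days. For probucol in dKO hearts they gave 19 to 21, 2 and 0 at 43, 31 and 21 days. The changes had 14 to 20 and 14 to 18, and age had 2. No 31-day chow, HET chow or dKO probucol heart was left out. The genotype and probucol counts at 31 days and the age count were thus not tested for dependence on a single compared heart. Counts that rest on HET probucol hearts are not given, because some of these fits kept 1 such heart at 43 days. Fits without 1 HET probucol heart cannot move a difference between other groups, so the direction of such values was fixed in advance. They count among the alternatives here. Of named values under the alternatives, 1496 kept direction and side of the threshold, 70 lost the call, 11 gained it and 25, none of them called, changed sign. For genotype at 21 days these were Psmc5 (-0.019 as deposited, -0.042 with the set block, -0.17 in the larger set), Psme4 (-0.016 as deposited, -0.11 in the larger set), Psmd3 (-0.058 in the larger set), Psme1 (0.29 in the smaller set) and Psmb3 (-0.00072 as deposited with the set block). For probucol at 21 days they were Psmc1 (0.0027 as deposited, 0.0043 after quantile normalization, 0.054 and 0.075 with the set block, 0.21 in the larger set), Psme4 (-0.011 as reported, and so without any 1 HET probucol heart, 0.13 as deposited, 0.12 after quantile normalization, 0.023, 0.086 and 0.085 with the set block, 0.0027 with the actin ratio, 0.014 without dKO chow 21 days replicate 2, 0.26 in the larger set), Psma2 (0.071 in the larger set) and Psme3 (0.063 in the larger set). At 31 days it was Psme4 (-0.086 as deposited, -0.072 with the set block). The cause was not tested.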

Other observations

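One HET probucol heart at 21 days, replicate 3, stood above every other group for the inducible subunits and the class I presentation genes, with the smallest margin for B2m. Its centred levels were 5.11 for Psmb8 (at most 2.98 in the other groups), 4.43 for Psmb9 (at most 1.29 in the other groups) and 6.13 for Psmb10 (at most 3.33 in the other groups). They were 4.70 for Tap1 (at most 1.85 in the other groups), 4.10 for Tapbp (at most 3.04 in the other groups) and 7.005 for B2m (at most 6.47 in the other groups) among the presentation genes. Tap2 was 1.405 (at most 0.455 in the other groups). Psme1 was 5.30 (at most 3.99 in the other groups) in the same heart. The other activators were within the levels of the other groups there, with Psme4 at 3.54 and Psme3 at 1.75.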
